A study of Mus musculus with 6 samples.

Results

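The Fam205a, Ccl27a and Il11ra1 cluster is a stretch of mouse chromosome 4 near 42 Mb in which several genes are present in near-identical copies. It was followed here through 10 genes, taken by gene name from tables of 51826 genes: Fam205a1, Fam205a2, Fam205a3, Fam205a4, Gm20878, Gm21953, Gm21955, Ccl27a, Il11ra1 and Phf24. These genes were picked from the measured difference between the genotypes described here, so their own differences are given as a description, and calls of these genes in the test across all genes support nothing. The RNA came from the cortex of male mice 6 to 8 weeks old, 3 days after whole-brain X-ray irradiation with a single dose of 10 Gy. There were 3 libraries from irradiated wild-type mice (Lgmn+/+-IR) and 3 from irradiated mice without asparagine endopeptidase (Lgmn-/--IR), a lysosomal cysteine protease encoded by Lgmn. Both genotypes are described as BALB/c, and both were irradiated. Lgmn-/- mice descended from 1 targeted embryonic stem cell clone, injected into BALB/c blastocysts, through matings with Flp and then Cre mice. The strain of that clone and the driver of Cre are not given in the sources used here, so the loss of Lgmn and the inherited background of the line cannot be told apart. No library came from an unirradiated mouse. A genotype difference present without irradiation therefore cannot be told apart from one that arose after it.

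CCL27 is a chemokine best known from skin, where keratinocytes release it and T cells follow it through the receptor CCR10. IL-11 receptor alpha, the product of Il11ra1, binds interleukin-11 and signals together with gp130 (Il6st) through JAK kinases and STAT3. PHF24, also called GINIP, is a neuronal protein that binds inhibitory G protein alpha subunits and shapes signaling by GABA-B receptors, while the products of the Fam205a genes have been little studied.

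In GRCm38, the build that the submitters' processing notes name, the 10 genes lie between positions 41699989 and 42944752 of chromosome 4. By BLAST of GENCODE M21 transcripts, Fam205a1 to Fam205a4 are copies of each other at 95% identity or more over at least 80% of the shorter transcript. Ccl27a has the copies Ccl27b, Gm13306, Gm20878, Gm21953 and Gm21586, Il11ra1 has Il11ra2 and Gm13305, Gm21955 has Gm37530, and Phf24 has none. The sequences that follow, read from the GENCODE transcripts 5′ to 3′ on the coding strand, show how little separates the copies. Capitals mark bases that differ between copies.

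The coding sequence of Fam205a1 has 3945 bases and that of each other Fam205a copy has 3927, with 27 substitutions between them. Coding bases 490 to 597 hold 6 of these, and Fam205a2, Fam205a3 and Fam205a4 have the same sequence here and over the whole coding sequence. The window lies in 1 exon, at chr4:42851558-42851665 (minus strand) for Fam205a1 and at chr4:42525910-42526017 (minus strand) for Fam205a2.
Fam205a1: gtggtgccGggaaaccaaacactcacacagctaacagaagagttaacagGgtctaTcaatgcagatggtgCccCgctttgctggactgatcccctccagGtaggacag
Fam205a2: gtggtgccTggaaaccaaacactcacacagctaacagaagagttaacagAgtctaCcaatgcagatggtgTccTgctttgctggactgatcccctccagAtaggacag

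The Ccl27 copies fall into a pair of kinds. Ccl27b and Gm13306 hold the coding sequence of the secreted chemokine, 363 bases with 3 substitutions from Ccl27a (C177T, G297A and A343C, counted from the A of the start codon, with the base of Ccl27a first). Bases 170 to 350 are shown because they hold all 3, over 2 exons at chr4:41769511-41769880 (minus strand) for Ccl27a and chr4:42655595-42655964 (plus strand) for Ccl27b, and Gm13306 is identical to Ccl27b over the 363 bases.
Ccl27a: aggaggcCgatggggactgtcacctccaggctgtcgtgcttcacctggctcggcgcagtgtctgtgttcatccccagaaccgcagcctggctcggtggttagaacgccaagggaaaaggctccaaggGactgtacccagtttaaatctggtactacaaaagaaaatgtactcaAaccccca
Ccl27b: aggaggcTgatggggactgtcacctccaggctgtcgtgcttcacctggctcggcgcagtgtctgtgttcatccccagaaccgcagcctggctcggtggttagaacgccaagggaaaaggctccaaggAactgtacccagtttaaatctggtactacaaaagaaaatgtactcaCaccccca

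Gm20878, Gm21953 and Gm21586 instead hold the upstream exons with which the longest annotated coding sequence of Ccl27a begins. Its first 107 bases differ from them by 2 substitutions (T79C and C82T, counted from the start codon of that Ccl27a form), and all 3 copies are identical to each other. The bases span 2 exons, at chr4:41773465-41773782 (minus strand) for Ccl27a and chr4:42294267-42294584 (plus strand) for Gm21953.
Ccl27a: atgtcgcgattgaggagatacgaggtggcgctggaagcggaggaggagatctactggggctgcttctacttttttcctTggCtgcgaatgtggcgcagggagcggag
Gm21953: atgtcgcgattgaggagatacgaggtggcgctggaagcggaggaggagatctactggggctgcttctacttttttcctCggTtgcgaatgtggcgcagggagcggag

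Il11ra1 differs from Il11ra2 and Gm13305, which are identical to each other over their coding sequence of 1299 bases, by 13 substitutions. Coding bases 952 to 1120 hold 6 of them, over 3 exons at chr4:41767601-41768210 (plus strand) for Il11ra1 and chr4:42657273-42657883 (minus strand) for Il11ra2.
Il11ra1: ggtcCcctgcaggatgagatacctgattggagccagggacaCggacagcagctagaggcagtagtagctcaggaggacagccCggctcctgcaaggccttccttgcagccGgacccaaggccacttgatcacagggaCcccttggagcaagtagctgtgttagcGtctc
Il11ra2: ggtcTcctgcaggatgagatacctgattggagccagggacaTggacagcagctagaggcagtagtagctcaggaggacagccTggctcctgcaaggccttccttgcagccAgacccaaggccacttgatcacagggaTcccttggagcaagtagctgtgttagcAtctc

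The similarity reached some of the promoters. In RefSeq windows of 300 bases around the gene start (GRCm38.p6), those of Gm20878 and Gm21953 were identical. They matched one window of Ccl27a at 98.3% of 292 aligned bases and another, overlapping window of Ccl27a at 98.2% of 217. Of the windows of Fam205a2, 1 of 2 matched that of Fam205a1 at 99.3% of 286. The windows of Fam205a3, Il11ra1 and Phf24 gave no local alignment of at least 50 bases with another gene's window. Neither did the remaining window of Ccl27a or that of Fam205a2. The window of Fam205a3 runs from 42294275 to 42294574, within the annotated span of Gm21953, whereas GENCODE starts Fam205a3 at 42318334. Its lack of a match therefore says nothing about sequence at the GENCODE start of Fam205a3. RefSeq windows were found for 8 of the 10 genes, all but Fam205a4 and Gm21955. Cut into windows of 100 bases, 100% of the transcript sequence of Fam205a2, Fam205a3 and Gm21953 also occurred in the transcripts of another gene. The share was 99.95% for Fam205a4, 56.6% for Gm21955, 52.5% for Fam205a1, 38.2% for Gm20878, 29.1% for Il11ra1 and 26.5% for Ccl27a, and 0% for Phf24. Which copy a shared read was counted on is not given in the sources used here, so values of single copies are uncertain, while Phf24 is free of this limit. A shared read may have been entered on several copies, so sums and shares over copies may count it repeatedly. Whether the counting used strand is not given either, and the annotated spans of Il11ra1 and Ccl27a, on opposite strands, overlap from 41769467 to 41769474.

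The total count was 41874462 to 46829441 reads per library. Lgmn had 5558, 5528 and 5775 counts in wild type and 3703, 3269 and 4109 in knockout, so each knockout library was below each wild-type library, though well above 0. Its difference on the log2 scale was −0.64 ± 0.12 (SE, adjusted p = 0.0315 by edgeR's quasi-likelihood test), and with 1 library left out the adjusted p stayed under 0.05 only without Lgmn-/--IR replicate 2 or 3 and reached 0.131 without Lgmn+/+-IR replicate 2. All 7 cortical excitatory neuron markers were expressed, with a summed level of 1373 to 1852 CPM (counts scaled to library size) in Lgmn+/+-IR and 1477 to 2074 in Lgmn-/--IR, and none passed the test. The 5 blood genes (4 hemoglobin genes and Alas2) had a summed level of 7.59 to 15.8 CPM in Lgmn+/+-IR and 233.6 to 2273 CPM in Lgmn-/--IR, lowest in Lgmn-/--IR replicate 3, and all 5 rose by the test used here. Summed astrocyte markers (760.0 to 876.4 against 964.9 to 1022 CPM) and oligodendrocyte markers (2090 to 2535 against 1470 to 1626 CPM) did not overlap between the genotypes either, with no single marker past the thresholds. Summed microglia markers (111.1 to 122.4 against 95.5 to 100.5 CPM) and lymphatic or stromal markers (19.8 to 21.8 against 23.9 to 29.96 CPM, a list that holds Ccl21a) also did not overlap. Taken singly, Csf1r was the only microglia marker without overlap, whereas Cx3cr1, P2ry12 and Tmem119 overlapped. Pdpn and Ccl21a did not overlap, whereas Lyve1 and Prox1 did. Among astrocyte and oligodendrocyte markers, Aldh1l1 and Mbp overlapped. Of all genes tested, 25.7% did not overlap. Of the 4 skin keratinocyte markers, Krt5 had no count and Krt14 at most 8, whereas Krt10 had 278 to 568 counts and Krt1 130 to 249. Of the 6 testis germ cell markers, Prm2, Tnp1 and Tnp2 had no count in any library, Prm1 had at most 3 and Acrv1 at most 2, whereas Ddx4 had 29 to 62. The summed level of the 4 striatum markers differed between libraries of 1 genotype, at 274.6, 584.1 and 928.2 CPM in wild type and 981.1, 180.0 and 211.5 CPM in knockout. The part of all these marker levels in the results was not tested. In bulk tissue, fewer cells of a type and less RNA per cell cannot be told apart.

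The largest differences among the 10 genes were those of Fam205a2, Fam205a3, Fam205a4 and Gm21955. The Fam205a copies were nearly silent in wild-type cortex and low but readily detected in knockout cortex. Fam205a2 (ENSMUSG00000094066; 42522580 to 42528175, minus strand) had 5, 4 and 3 counts in wild type and 137, 139 and 181 in knockout. Fam205a3 (ENSMUSG00000093996; 42318334 to 42323929, plus strand) had 5, 4 and 3 against 169, 172 and 227, and Fam205a4 (ENSMUSG00000078746; 41966058 to 41971856, plus strand) had 5, 4 and 3 against 166, 167 and 221. The wild-type counts of these 3 copies were thus equal in every library, and the copies are not separate measurements. In Lgmn-/--IR, the ratio of Fam205a3 to Fam205a2 was 1.24 ± 0.011 and that of Fam205a4 to Fam205a2 was 1.21 ± 0.0098 (SD, n = 3), so the copies were no longer equal but kept a fixed proportion.

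Fam205a1 (ENSMUSG00000078721; 42848071 to 42853888, minus strand), the copy with sequence of its own, had 9, 17 and 15 counts in wild type and 73, 79 and 94 in knockout. Here too the lowest knockout library was well above the highest wild-type library. As a ratio of summed counts per library size, Fam205a1 was 5.83-fold higher in Lgmn-/--IR (95% exact counting interval 4.18 to 8.33), whereas Fam205a2 was 37.0-fold higher (20.99 to 72.2), Fam205a3 46.0-fold (26.1 to 89.6) and Fam205a4 44.9-fold (25.5 to 87.4). The intervals cover counting error only, since counts were summed over the 3 libraries of a genotype and the spread between libraries was left out. Those of Fam205a2, Fam205a3 and Fam205a4 may rest on the same reads. The reads also carry no molecular identifiers, so duplicate reads are not told apart.

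The 4 copies together had 24, 29 and 24 counts in wild type and 545, 557 and 723 in knockout, or 0.589 ± 0.078 and 13.6 ± 2.51 CPM (SD, n = 3). Because the handling of shared reads is not given, this sum and the shares below may count the same read repeatedly. The division among the copies differed as well. Fam205a1 held 37.5%, 58.6% and 62.5% of the family's counts in the wild-type libraries and 13.4%, 14.2% and 13.0% in the knockout libraries. On the length-scaled FPKM scale, all 4 copies remained low genes in both genotypes: the highest mean was that of Fam205a3 in Lgmn-/--IR (0.924 ± 0.134 FPKM), against 0.0168 ± 0.0054 FPKM in Lgmn+/+-IR.

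**Figure D1:**
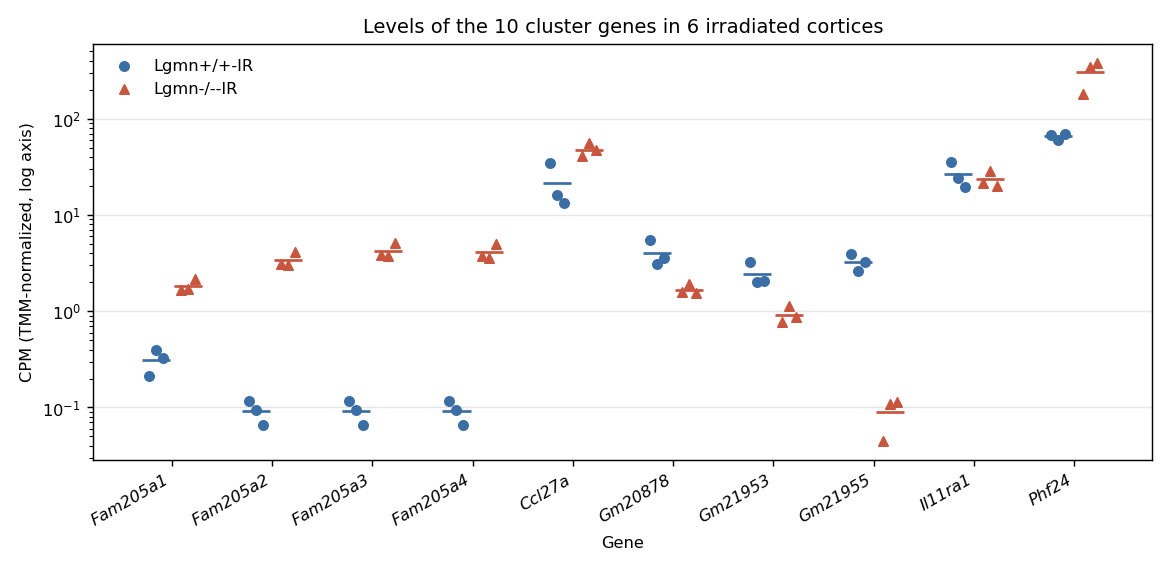
Level of each of the 10 genes in CPM (log axis) in 3 Lgmn+/+-IR libraries (circles) and 3 Lgmn-/--IR libraries (triangles), with bars at the means. The groups overlap only for Il11ra1. Fam205a2, Fam205a3 and Fam205a4 stand higher and Gm21955 stands lower in Lgmn-/--IR by more than an order of magnitude, and Fam205a1 stands higher by less.

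Ccl27a and its upstream-exon copies differed between the genotypes in opposite directions. Ccl27a (ENSMUSG00000073888; 41769467 to 41774247, minus strand) had 1487, 686 and 604 counts in wild type and 1801, 2583 and 2053 in knockout. Lgmn+/+-IR replicate 1 had more than either other wild-type library and came close to the lowest knockout library, and the groups did not overlap. The means were 21.4 ± 11.7 and 47.7 ± 7.59 CPM (SD, n = 3), a log2 fold change of 1.16 (standard error 0.35). Without Lgmn+/+-IR replicate 1 it was 1.71 and without Lgmn+/+-IR replicate 3 it was 0.91.

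Gm20878 (ENSMUSG00000078747; 41941572 to 41943124, plus strand) had 233, 134 and 162 counts in wild type and 70, 88 and 68 in knockout. Gm21953 (ENSMUSG00000094695; 42294267 to 42294855, plus strand) had 139, 86 and 93 against 34, 52 and 38. Both were lower in every knockout library than in any wild-type library, with log2 fold changes of −1.27 (standard error 0.25) and −1.41 (standard error 0.28). Gm21586, the third gene with this sequence and not among the 10, had 104, 56 and 67 counts against 31, 49 and 35. Lgmn+/+-IR replicate 1 was the highest of the 6 libraries for Gm20878, Gm21953 and Gm21586, and the highest of the wild-type libraries for Ccl27a.

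Among the copies of the secreted form, Ccl27b had 71, 49 and 37 counts in wild type and 7, 11 and 5 in knockout, with no overlap. Ccl27b was not one of the 10 genes, and it fell by 2.81 on the log2 scale (standard error 0.42, adjusted p = 0.0169 by edgeR's quasi-likelihood test over all genes). The call was lost when any of 4 libraries was left out, with adjusted p of 0.0516, 0.0715, 0.0617 and 0.0716 without Lgmn+/+-IR replicates 1 and 2 and Lgmn-/--IR replicates 1 and 3. Ccl27b passed the filter on low counts only through Lgmn+/+-IR, so nothing is read from its call. Gm13306 had 395, 257 and 213 against 173, 260 and 167 counts, which overlap, and did not pass the test (a log2 fold change of −0.58, adjusted p = 0.328).

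Within the Ccl27 family, Ccl27a held 61.2%, 54.1% and 51.4% of all counts in wild type and 85.1%, 84.9% and 86.8% in knockout. The mean share of every other copy was lower in Lgmn-/--IR: it was 18.2% against 7.93% for Gm13306, 11.3% against 3.03% for Gm20878, 6.80% against 1.64% for Gm21953, 4.80% against 1.52% for Gm21586 and 3.31% against 0.301% for Ccl27b. The ratio of Ccl27a to Gm20878 was 5.08 ± 1.33 in wild type and 28.4 ± 2.37 in knockout (SD, n = 3). The whole family gave 56.9, 29.6 and 25.9 CPM in wild type and 47.6, 65.6 and 53.9 CPM in knockout, where only Lgmn+/+-IR replicate 1 reached the range of the knockout libraries. The summed family therefore differed less than its members did, with a log2 fold change of 0.57 (standard error 0.30).

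**Figure D2:**
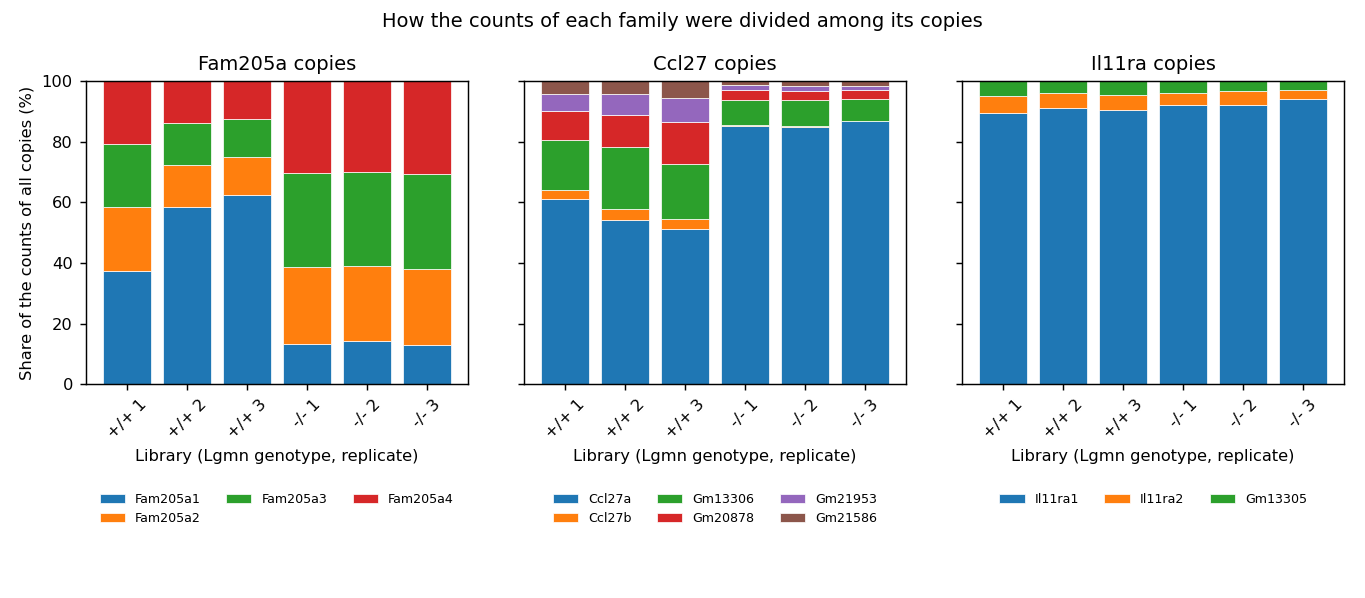
Share of the counts of the Fam205a, Ccl27 and Il11ra families held by each copy, in percent, with 1 stacked bar per library (genotype and replicate number under each bar). Fam205a1 holds a mean of 52.9% of its family in wild type and 13.5% in knockout, Ccl27a holds 55.6% and 85.6% of its own, whereas Il11ra1 holds 89.6% to 94.1% in every library. A read shared by copies may be counted on several of them.

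Gm21955 (ENSMUSG00000102504; 42714926 to 42719893, plus strand) is annotated as TEC, a class of transcripts that still await experimental proof. It had 169, 111 and 147 counts in wild type and 2, 5 and 5 in knockout, and in knockout cortex it was the lowest of the 10 genes on the FPKM scale (0.0132 ± 0.0051 FPKM). On summed counts the wild-type level was 36.6-fold the knockout level (95% exact counting interval 20.7 to 71.4). Its copy Gm37530, 98.5% identical, had 18, 10 and 18 counts in wild type and 19, 30 and 43 in knockout, so it was not lower. Gm21955 held 90.4 ± 1.32% of the pair's counts in wild type and 11.4 ± 2.53% in knockout (SD, n = 3), a near exchange of places. The pair together still gave fewer counts in the knockout libraries, with 187, 121 and 165 against 21, 35 and 48.

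Il11ra1 (ENSMUSG00000073889; 41699989 to 41769474, plus strand), which ends next to Ccl27a, was the member without a difference beyond the spread of its libraries. It had 1500, 1048 and 896 counts in wild type and 951, 1342 and 885 in knockout. The groups overlapped throughout, at 26.4 ± 7.91 and 23.5 ± 4.73 CPM (SD, n = 3), with a log2 fold change of −0.17 (standard error 0.24). Its copies were low in both genotypes. Il11ra2 had 90, 57 and 49 counts against 41, 67 and 27, and Gm13305 had 84, 46 and 44 against 42, 49 and 29. Both overlapped between the genotypes, and Il11ra1 held 89.6% to 94.1% of the family's counts in all 6 libraries. In FPKM, Il11ra1 (14.4 ± 4.38) was below Ccl27a (34.5 ± 19.5) in wild type, and 12.3 ± 2.62 stood against 70.0 ± 13.0 in knockout, with every library of Ccl27a above every library of Il11ra1 in each genotype.

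Phf24 (ENSMUSG00000036062; 42916660 to 42944752, plus strand) is the single-copy gene of the set, and no window of 100 or 150 bases of its transcripts occurs in those of another gene. It had 2878, 2569 and 3167 counts in wild type and 8080, 16110 and 16669 in knockout. The knockout libraries were all higher, and Lgmn-/--IR replicate 1 was well below the other two. That replicate was also the knockout library with the high summed level of striatum markers, whose part in the value was not tested. The means were 65.7 ± 5.06 and 302.9 ± 106 CPM (SD, n = 3), 4.61-fold apart, with a log2 fold change of 2.20 (standard error 0.27) that stayed between 2.01 and 2.47 with each library left out.

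The difference in Phf24 was smaller on the FPKM scale, where it had 19.1, 15.7 and 17.1 FPKM in wild type and 32.6, 57.4 and 57.7 in knockout. On log2(FPKM + 1) the difference was 1.42, against 2.20 in counts. Counts scaled to the library total and divided by FPKM give a length in kilobases that these values imply for a gene. It is not a measured transcript length, because the read counter is not given and may treat reads otherwise than the tool behind FPKM. For Gm21955 it was 5.66 ± 0.0099 kb in wild type (SD, n = 3), against an annotated transcript of 4968 bases. For Phf24 it was 3.59, 3.91 and 4.07 kb in wild type and 5.53, 6.24 and 6.17 kb in knockout, with no overlap. The median log2 ratio of this length between the genotypes was 0.01 over 13845 tested genes with at least 50 counts in every library. The central 95% ran from −0.17 to 0.20, and Phf24 (0.63) was 1 of 12 genes with a ratio at least that high. GENCODE M21 lists Phf24 transcripts of 6392, 6494 and 6538 bases, of which 5151 are 3′ untranslated, and others of 230 to 1649 bases. Whether the transcripts of Phf24 differed between the genotypes was not tested. For Ccl27a the implied length was 0.631 ± 0.013 kb in wild type and 0.673 ± 0.0051 kb in knockout, and for Il11ra1 it was 1.88 ± 0.14 and 1.89 ± 0.12 kb (SD, n = 3).

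**Figure D3:**
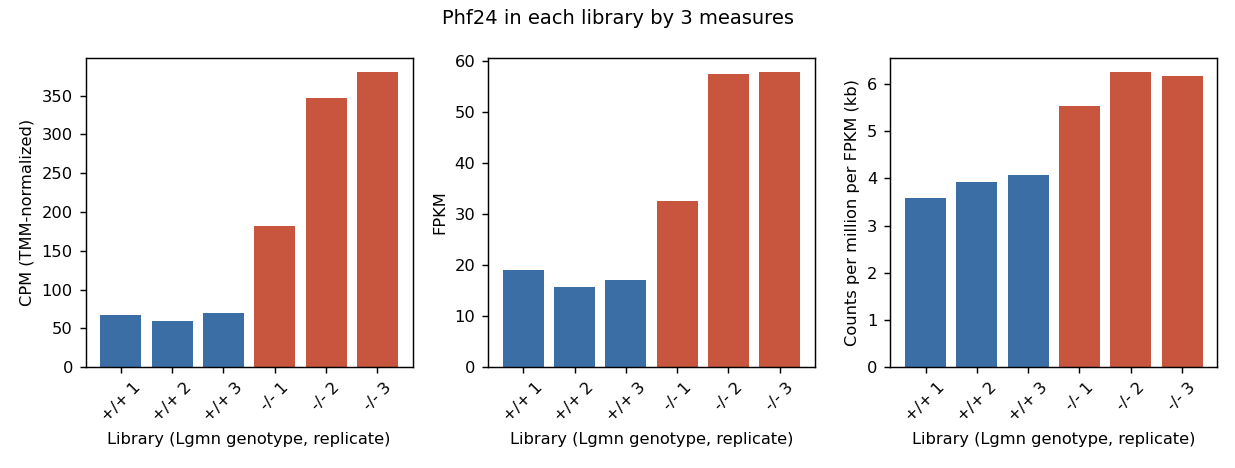
Phf24 in each of 6 libraries as TMM-normalized CPM, as the deposited FPKM, and as library-scaled counts per FPKM. The last is an implied length in kb, not a measured transcript length. Each bar is 1 library, blue for Lgmn+/+-IR and red for Lgmn-/--IR. All 3 measures are higher in every knockout library, and the implied length goes from 3.59 to 4.07 kb up to 5.53 to 6.24 kb.

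With edgeR's quasi-likelihood test over 18345 genes, 2.06% of genes met both thresholds (adjusted p below 0.05, and a log2 fold change above 1 in size), with 0.959% higher and 1.1% lower in Lgmn-/--IR. Of the 10 genes 8 did, namely the 4 Fam205a genes and Phf24 (higher) and Gm20878, Gm21953 and Gm21955 (lower). Because the genes were picked on this comparison, nothing is read from that count. All 10 passed the filter on low counts, the 4 Fam205a genes and Gm21955 only through the genotype in which they were high. The libraries of the genotypes did not overlap in 9 of the 10 genes, 6 above and 3 below, where 12.4% and 13.3% of all genes tested did so. Gm20878 and Gm21953 no longer passed both thresholds when any 1 of the 6 libraries was left out, with log2 fold changes from −1.43 to −0.99 and from −1.57 to −1.13. Of 15 alternatives for the fit, Ccl27a passed them only with DESeq2 and without Lgmn+/+-IR replicate 1.

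Genes around the 10 were followed by position, as a description. Of 93 other genes tested between 40 and 45 Mb, 10 passed both thresholds (10.8%, against 2.06% of all genes), 8 higher and 2 lower, and the median log2 fold change of the 93 was 0.04 against −0.01 over all genes. Each of these 10 passed the filter on low counts only through the genotype in which it was high: the 8 higher genes had 0 to 6 counts in every wild-type library, and Ccl27b and Fam205c had 5 to 11 and 0 to 7 in knockout. With at least 10 counts required of each library, 0 of 76 genes passed by the same test. Nothing is therefore read from the share, from the single calls or from where these genes lie. All 10 start within the span of the 10 cluster genes, itself set by genes picked on this comparison, where 23 others were tested. None of 30 tested genes below that span and none of 40 above it passed by edgeR's quasi-likelihood test. At an unadjusted p under 0.05 by that test there were 3 and 11 genes, against 3413 of 18345 over all genes. DESeq2 called 1 gene in each of these flanks and limma-voom 0. The 8 higher genes were Gm13303, Gm21093, Gm3892, Gm3893, Gm13301, Gm3883, Gm2163 and Gm10593. Each shared 78.3% to 100% of its 100-base windows with another gene, and Fam205a1, Fam205a2, Fam205a3 and Fam205a4 all shared windows with Gm10593 and Gm3892.

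Gm3883 had 6, 4 and 4 counts in wild type and 95, 154 and 231 in knockout (5.02 ± 0.46 SE on the log2 scale, adjusted p = 0.00222). Gm21093 had 1, 2 and 0 against 70, 114 and 173 (6.69 ± 0.67 SE on the log2 scale, adjusted p = 0.00327), and both calls held with each library left out. Gm13301 had no count in wild type and 14, 21 and 28 in knockout, at least 20.4-fold higher against a floor of 3 counts over the group. In Gm13301 the call held only without Lgmn-/--IR replicate 1, and leaving out any other library gave adjusted p of 0.0513 to 0.0843. These values are a description, since the genes passed the filter on low counts only through Lgmn-/--IR.

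Beside Ccl27b, the lower gene was Fam205c, which lies between Fam205a1 and Phf24, at 42868004. Fam205c shares no 100-base window with another gene. It had 93, 72 and 108 counts in wild type and 3, 7 and 0 in knockout, so that it was lower while the Fam205a genes were higher (−4.76 ± 0.64 SE on the log2 scale, adjusted p = 0.0106, 0.0481 at most with a library left out). Fam205c passed the filter on low counts only through Lgmn+/+-IR, so nothing is read from its call. Dnajb5, a heat shock co-chaperone gene that starts after the end of Phf24, had 7934, 6838 and 6754 counts against 10011, 11622 and 12493 (0.62 ± 0.13 SE on the log2 scale, adjusted p = 0.0474). Leaving out any library took the adjusted p of Dnajb5 over 0.05, to between 0.0612 and 0.19.

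**Figure D4:**
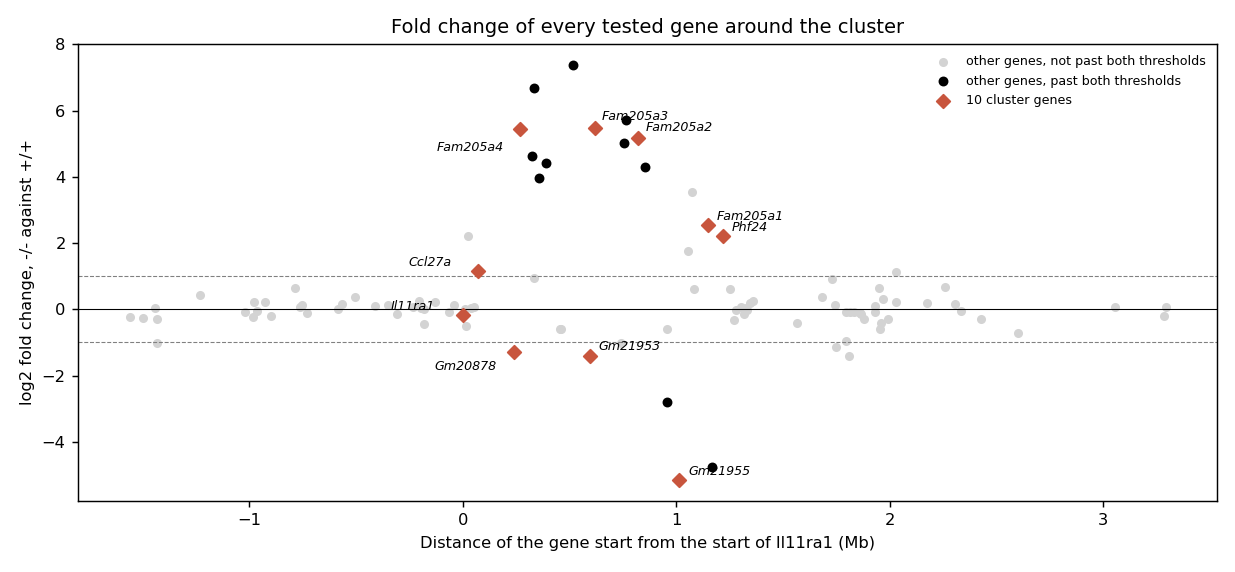
Log2 fold change of every tested gene between 40 and 45 Mb of chromosome 4 against the distance of its start from that of Il11ra1, in Mb. Diamonds are the 10 cluster genes, black points the 10 other genes past both thresholds (dashed lines mark 1 and −1) and grey points the rest. Black points lie only between Il11ra1 and Phf24. Each passed the filter on low counts only through the genotype where it was high, so nothing is read from their position. The uppermost black point is Gm13301, whose value depends on the prior count, as it had no count in Lgmn+/+-IR.

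The ligands, receptors and partners of these gene products were followed in 4 lists. The lists covered CCL27 and neighboring chemokines, IL-11 receptor signaling, the FAM205 and SPATA31 family and GABA-B receptor signaling. Of their 42 tested genes, 2 passed both thresholds (4.76%, against 2.06% of all genes), Ccl27b and Fam205c. Both are among the interval genes above and passed the filter on low counts only through Lgmn+/+-IR. With at least 10 counts in every library, 0 of 37 list genes passed, so nothing is read from this share. Ccr10, the receptor of CCL27, had 21, 16 and 18 counts in wild type and 37, 24 and 22 in knockout, which did not overlap but missed the threshold (0.55 ± 0.33 SE on the log2 scale, adjusted p = 0.424). Ccl28, the other ligand of CCR10, had 135, 152 and 267 against 71, 104 and 79 counts, again without overlap (−1.16 ± 0.28 SE on the log2 scale, adjusted p = 0.0813). The chemokine genes Ccl19 and Ccl21a, which lie inside the span, had 9, 6 and 12 against 52, 21 and 21 counts and 10, 0 and 9 against 158, 28 and 44 counts. Of their 100-base windows, 39.3% and 50.3% also occurred in another gene, so these counts are uncertain as well. Lgmn-/--IR replicate 1 was the highest for both, and neither passed (adjusted p = 0.126 and 0.113), although Ccl21a and Ccl28 did with DESeq2. The 6 tested genes of this chemokine list had a median log2 fold change of −0.19.

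None of 17 tested genes of IL-11 receptor signaling passed by edgeR's quasi-likelihood test, DESeq2 or limma-voom. With the first, 2 had an unadjusted p under 0.05, against 3413 of 18345 over all genes. The median log2 fold change of the 17 was −0.02, against −0.01 over all genes. Il11 itself had 31, 34 and 14 counts in wild type and 6, 12 and 14 in knockout (adjusted p = 0.211). Il6st, the signaling partner, had 2061, 2980 and 4225 against 1724, 2832 and 3054 counts (adjusted p = 0.599). None of 18 tested genes of GABA-B and inhibitory G protein signaling passed by any of these tools either, with 2 at an unadjusted p under 0.05 and a median log2 fold change of 0.04. The receptor subunit genes Gabbr1 and Gabbr2 had log2 fold changes of 0.00 (standard error 0.09) and 0.36 (standard error 0.19). Gnai2, Gnao1 and Gng2, which encode G protein subunits, were higher without overlap, and Rgs4, a regulator of G protein signaling, was lower without overlap, with adjusted p from 0.158 to 0.32. These 4 of 18 genes are 22.2%, where 25.7% of all genes tested did not overlap. Of the 6 other FAM205 and SPATA31 genes only Fam205c had enough counts to be tested.

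Outside the interval, the genes most like each pattern were found by Pearson's r of log2(CPM + 1) over the 6 libraries among 18242 genes, as a description. Many genes come close with so few libraries, and 329 had an r over 0.95 with the sum of the Fam205a genes. The closest to that sum were AC156572.1 on chromosome 13 (r = 0.999), Gm42605 on chromosome 5 (r = 0.998) and Gm6969 on chromosome 12 (r = 0.998). Gm6969 had 0.117 to 0.220 CPM in wild type and 42.4 to 65.1 CPM in knockout. Ccl27a was most like Lrp3 (r = 0.994), Gm37999 (r = 0.993) and Ccdc34 (r = 0.992), and Il11ra1 like CT030194.1, Plec and Bud31 (r = 0.991, 0.990 and 0.990). Phf24 was most like Ppp1r3f, Pdia6 and Rnf219 (r = 0.995, 0.995 and 0.994). Pdia6, which encodes a protein disulfide isomerase, had 91.3 to 93.2 CPM in wild type and 128.7 to 154.2 in knockout.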

How the data were processed

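PolyA RNA from 3 wild-type (Lgmn+/+-IR) and 3 knockout (Lgmn-/--IR) cortices was analysed, grouped by the sample labels. Reads were trimmed by the authors (Trimmomatic 0.36) and aligned with HISAT2, and the deposited raw counts per gene are not normalized. The authors computed FPKM with StringTie. The read counter, strand setting and annotation release are not given in the sources used here. Of 51826 gene IDs, 51633 were found in GENCODE M21 (GRCm38).

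The 10 genes and all gene lists were chosen with earlier results of these data known. Counts were tested with edgeR 4.0.16 in R 4.3.3 (TMM, filterByExpr, quasi-likelihood test, Benjamini-Hochberg adjustment over 18345 genes). CPM are TMM-normalized, and errors are SD unless marked as SE or standard error. Copies were found with BLAST 2.17.0+, and coding sequences were aligned with Biopython 1.88. Besides the 10 genes and Lgmn, the genes named are their near-identical copies, list genes past an adjusted p of 0.05, receptors and ligands, other genes of the interval past both thresholds (at most 15), and the 3 genes most like each pattern; the remaining names (among them Dnajb5, Ccl19, Ccl21a, the GABA-B genes and markers) were chosen after their values were seen. Samples of a genotype are taken as separate mice, which no label states, so p-values measure the spread between these samples. No pair of libraries held identical values. Alternatives were DESeq2 1.42.0, limma 3.58.1 (voom, and log2(FPKM + 1) or log2(FPKM + 0.1)), upper-quartile and DESeq2 scaling, no filter or at least 10 counts in every library, a replicate block, and the omission of each library.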

Additional observations from a re-analysis of the deposited data

How the results depend on the processing

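Of the 10 genes, 9 kept the sign of their log2 fold change under all 15 alternatives for the fit in which they were tested, and Il11ra1 did not (−0.34 to 0.10). The 8 genes past both thresholds became 2 with limma on log2(FPKM + 1), a scale that understates changes of low genes. They became 1 under the filter of 10 counts in every library, where Fam205a1 to Fam205a4 and Gm21955 were not tested. With counts summed over near-identical copies, Gm20878 and Gm21953 turned to a log2 fold change of 0.62, at both settings for copies, where the sum includes Ccl27a. Over all genes, 377 calls became 593 with DESeq2, 228 under that filter and 175 with limma on log2(FPKM + 1). The 10 calls among other genes of the interval became 3 with limma on log2(FPKM + 1) and 0 under the filter (76 genes tested), and the 2 calls in the lists became 4 with DESeq2 and 0 under the filter. Leaving out 1 library at a time, the calls numbered 200 to 326 over all genes, 6 to 7 of the 10 genes, 5 to 9 of the other interval genes (5 without Lgmn+/+-IR replicate 2, and 6 without Lgmn+/+-IR replicate 1 or Lgmn-/--IR replicate 3) and 1 to 2 of the list genes.

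The labels give both genotypes replicates 1 to 3, but same-numbered libraries did not deviate together (correlations −0.24, −0.04 and −0.02). Of the Lgmn+/+-IR libraries, 0 of 3 correlated best with its own number. These values gave no sign of pairing but cannot exclude it, because the deviations hold every difference between libraries. With the replicate number as a block there were 139 calls over all genes, 5 among the 10 genes (Fam205a2, Fam205a3, Fam205a4, Gm21955 and Phf24), 5 among the other interval genes and 0 in the lists.

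Depth limits the Fam205a copies in Lgmn+/+-IR and Gm21955 in Lgmn-/--IR, where single libraries held 2 to 17 counts.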
